A study of Mus musculus with 6 samples.

Results

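The expression of 9 Notch target genes was compared between mouse quadriceps samples labelled Pofut1 knockout and control. They are the transcriptional repressors Hes1, Hes5, Hes7, Hey1, Hey2 and Heyl, the feedback inhibitor Nrarp, and the Deltex genes Dtx1 and Dtx4. They were chosen by symbol as established readouts of Notch activity. Their probe sets are those that the platform annotation pairs with exactly 1 of these symbols, which gave 15 of 45101 probe sets and 9 of 18194 genes. All mice were 2-month-old C57/Bl6 animals, and every group carried a cre transgene driven by skeletal alpha-actin, the actin of the muscle fibre. In 3 samples, the knockout, the transgene was combined with floxed Pofut1 alleles. In the other 3, the control, Pofut1 was wild type. Each sample was read on 1 array of biotin-labelled, amplified cDNA from whole muscle. The promoter restricts cre to cells that use skeletal alpha-actin, so vessel, nerve, connective tissue and blood cells in the same piece of muscle are not expected to lose the gene. Loss of Pofut1 was not measured by cell type, so whether satellite cells kept it is unknown here.

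Notch is a receptor that is cut when it binds a Delta or Jagged ligand on a neighbouring cell. The freed intracellular part enters the nucleus, joins the DNA-binding protein RBPJ and a Mastermind coactivator, and switches on a small set of genes, of which the Hes and Hey repressors are the best known. Pofut1 places O-linked fucose on the EGF-like repeats of the Notch receptors, a modification that signalling through ligands depends on. In adult muscle Hes1, Hey1 and Heyl are known from satellite cells, where they hold back differentiation, and Hey1, Hey2 and Heyl also from the endothelium and smooth muscle of vessels. In bulk tissue, fewer cells of a type and less RNA per cell cannot be told apart.

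No Notch target gene passed the test between knockout and control muscle. Of the 9 genes, 0 passed an adjusted p of 0.05 in limma, 0 had an unadjusted p under 0.05, and 0 had groups that did not overlap. Over all genes these shares were 0.0% (0 called), 2.58% and 9.01%. By value, 4 members were higher in the knockout and 5 lower, and the median log2 difference was -0.03, against -0.01 over all genes. Of the 15 probe sets, 0 passed in the fit over 45037 probe sets (0.0% called there) and 0 had groups that did not overlap (7.66% of all). Hey1 had the largest difference of the 9 by size, at -0.74 on the log2 scale.

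Intensities are read here against a background level of 81.4, or 6.35 on the log2 scale. It is the 95th percentile of 38 measured genes restricted to other organs, such as liver, testis or brain. By this measure 5 members (Hes1, Hey1, Heyl, Nrarp and Dtx4) were above background in at least 1 group mean. The other 4 (Hes5, Hes7, Hey2 and Dtx1) were below it in both group means, so a change in them could be hidden. Apart from this level, the choice of the brightest probe set per gene and the marker sums below, levels of different probe sets were not compared.

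One array, labelled control replicate 3, differed from all others and enters every comparison below. Its log2 values correlated with those of the other arrays at 0.928 to 0.937 over all probe sets, and the other 5 correlated with each other at 0.978 to 0.991. The ratio of 3' to 5' signal of Gapdh, a measure used to follow the length of RNA and its cDNA, was 10.5 there, 3.70 in knockout replicate 2, and 1.73 to 1.97 in the remaining 4 arrays. For Actb the same ratio was 5.85, 4.34 and 1.67 to 1.83, so by it these 2 arrays lay closer together. Xist, a transcript of female cells, read 1349 in knockout replicate 2, 1414 in control replicate 2 and 42.7 to 67.6 in the remaining 4 arrays. Knockout replicate 2 thus differed from the other 2 knockout arrays in Xist as well as in these ratios. The brightest probe set of the targeted gene was also lowest in the array labelled control replicate 3. In the order of replicates 1 to 3, which holds for all values below, the brightest Pofut1 probe set read 220.1, 231 and 194 in the knockout and 301, 380 and 90.6 in control. Its log2 difference was -0.02 ± 0.52 (SE), and -0.66 ± 0.17 without that array (adjusted p = 0.802 in limma). The other 2 Pofut1 probe sets were below background in every array and highest in that one, at 57.5 against 44.3 to 47.9 and at 74.9 against 49.3 to 58.5. Whether any of the 3 lies in the deleted part of the gene is unknown here. Pofut1 thus did not check the labels, and if that array's label were wrong, every difference given here over all 6 arrays would change in meaning. All 16 muscle fibre markers, among them Acta1, Ckm and Myh4, were above background in every array. Their summed intensity was 123515 to 129651 in the knockout and 112769 to 121757 in the control arrays. Of the cells that could carry these targets, endothelium had 14 of 16 markers above background in every array (summed 4853 to 5425 in the knockout, 4372 to 4887 in control), smooth muscle and pericytes 13 of 15 (11821 to 13405 and 11352 to 12602), and satellite cells 5 of 10 (2041 to 2726 and 1519 to 3118). The satellite cell sum was 3118 and 2976 in control replicates 1 and 2 and 1519 in the array labelled control replicate 3. Without that array 1 satellite cell marker was higher in the knockout and 9 were lower. Endothelium then had 12 and 4, smooth muscle and pericytes 14 and 1, and all genes 8734 and 9460. Calcr, a satellite cell marker, and Cnn1, a smooth muscle marker, were below background in every array. The lists share genes, so they are not independent. Des is counted both as a muscle fibre marker and as a smooth muscle marker. Notch3 and Pdgfrb, counted with smooth muscle and pericytes, and Pax7, counted with satellite cells, are also among the pathway genes below. The part of cell composition in the values below was not tested.

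Promoter sequences from RefSeq (GRCm38.p6) were matched for 5 of the 9 members, Hes5, Hes7, Hey2, Nrarp and Dtx1, as windows of 250 bases before to 50 after the start of the gene. The 3 windows below show the range, from a pair of RBPJ-type motifs to none. Hey2 lies on the minus strand at chr10:30842734-30843033, Hes5 on the plus strand at chr4:154960673-154960972, and Nrarp on the plus strand at chr2:25180508-25180807. Each is written 5′ to 3′ along the gene, and capitals mark matches on either strand to GTGGGAA, the core that RBPJ binds, or to CACNAG, the N box that Hes proteins bind.
Hey2: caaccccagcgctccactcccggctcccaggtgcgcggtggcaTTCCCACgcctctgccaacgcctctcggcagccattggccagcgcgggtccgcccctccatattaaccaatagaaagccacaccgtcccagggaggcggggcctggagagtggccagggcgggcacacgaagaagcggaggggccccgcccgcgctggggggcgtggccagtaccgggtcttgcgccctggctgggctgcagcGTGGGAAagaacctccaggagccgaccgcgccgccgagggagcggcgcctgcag
Hes5: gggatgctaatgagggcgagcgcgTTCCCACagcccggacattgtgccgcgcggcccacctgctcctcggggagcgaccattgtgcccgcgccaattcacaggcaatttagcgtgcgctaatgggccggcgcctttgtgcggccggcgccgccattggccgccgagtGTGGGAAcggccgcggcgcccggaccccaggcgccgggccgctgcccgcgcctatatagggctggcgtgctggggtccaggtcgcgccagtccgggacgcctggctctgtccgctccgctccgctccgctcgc
Nrarp: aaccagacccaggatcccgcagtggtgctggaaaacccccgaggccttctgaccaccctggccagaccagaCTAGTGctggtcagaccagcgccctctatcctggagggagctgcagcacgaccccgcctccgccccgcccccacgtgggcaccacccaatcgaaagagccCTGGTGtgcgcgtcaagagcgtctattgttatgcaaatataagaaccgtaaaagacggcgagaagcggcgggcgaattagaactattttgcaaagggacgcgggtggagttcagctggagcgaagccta
GTGGGAA, searched on both strands, was in the windows of Hes5 (2 matches), Hey2 (2) and Hes7 (1), that is in 3 of 5, and in 6.38% of all 32851 promoter windows of this length. In Hey2 the 2 matches begin at -207 and -4 from the start, and in Hes5 at -226 and -83. CACNAG was in Nrarp (2 matches), Dtx1 (1) and Hes7 (1), and in 42.5% of all windows. No match of one motif overlapped one of the other in these 5 windows. A match is a string of letters and not a site shown to be bound.

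Hes1 is the repressor most widely induced by Notch, and its own protein shuts its gene off again. It read 82.1, 102 and 81.5 in the knockout and 72.2, 85.1 and 104 in control. The groups overlapped throughout, and the 2 highest values fell in different groups. Its log2 difference was 0.03 ± 0.21 (SE, n = 3 and 3), with a 95% interval of -0.46 to 0.52 and an adjusted p of 0.994 in limma (exact two-sided permutation p = 1). The difference was 0.17 without the array labelled control replicate 3, -0.07 without knockout replicate 2 and -0.10 without control replicate 1. The 2 high values were those of knockout replicate 2 and the array labelled control replicate 3, the arrays with high 3' to 5' ratios.

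Hes5 and Hes7, which act in neural progenitors and in the segmentation clock of the embryo, were at background. Hes5 read 44.8, 46.5 and 45.1 in the knockout and 44.1, 44.2 and 45.4 in control, and its second probe set read 38.7 to 40.7. Hes7 read 40.5, 41.4 and 40.0 in the knockout and 40.4, 40.9 and 43.6 in control. Both were nearly flat over the 6 arrays, the highest value being 1.06 times the lowest for Hes5 and 1.09 times for Hes7. The log2 differences were 0.03 ± 0.04 and -0.03 ± 0.04 (SE; adjusted p = 0.971 in limma for each). Both genes hold GTGGGAA in the promoter window searched, and both were below the background level in every array.

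Hey1, a repressor induced by Notch in vessels and in satellite cells, had the widest range of the 9. It read 302, 192 and 302 in the knockout and 313, 302 and 865 in control. Apart from the single value of 865 and the low value of knockout replicate 2, the remaining 4 arrays lay between 302 and 313. The deposited value was identical to the last digit in knockout replicates 1 and 3 and control replicate 2. Such ties were not peculiar to it, since 1109 probe sets (2.46%) had the same value in 3 or more arrays. The knockout mean was 8.02 ± 0.38 and the control mean 8.76 ± 0.86 on the log2 scale (SD, n = 3). The log2 difference was -0.74 ± 0.44 (SE), or 1.67-fold lower in the knockout, with a 95% interval of -1.78 to 0.30 and an adjusted p of 0.971 in limma. The exact permutation p was 0.3, where 0.1 is the smallest that 3 against 3 arrays allow. Without the array labelled control replicate 3 the difference was -0.24 ± 0.23 (adjusted p = 0.823 in limma), and without both arrays with high 3' to 5' ratios it was -0.02.

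Hey2 and Heyl, the relatives of Hey1 in arteries and in smooth muscle, were also highest in the array labelled control replicate 3. Hey2 read 54.5, 63.3 and 53.1 in the knockout and 58.4, 53.1 and 87.1 in the control arrays. Only that last value was above background. Heyl read 90.5, 111 and 64.7 in the knockout and 86.5, 84.7 and 174 in the control arrays. For Heyl the knockout values lay on both sides of the first 2 control values, and for Hey2 knockout replicate 3 and control replicate 2 nearly coincided. The log2 differences were -0.19 ± 0.20 for Hey2 and -0.33 ± 0.35 for Heyl (SE; adjusted p = 0.971 in limma for each, exact permutation p = 0.7 and 0.6). Both turned, to 0.029 and 0.017, when the array labelled control replicate 3 was left out. The first of the 2 other Heyl probe sets read 39.3 to 41.6 and the second 45.8 to 69.7, below background in every array, and the second was lowest in the array where the brightest one was highest.

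**Figure D1:**
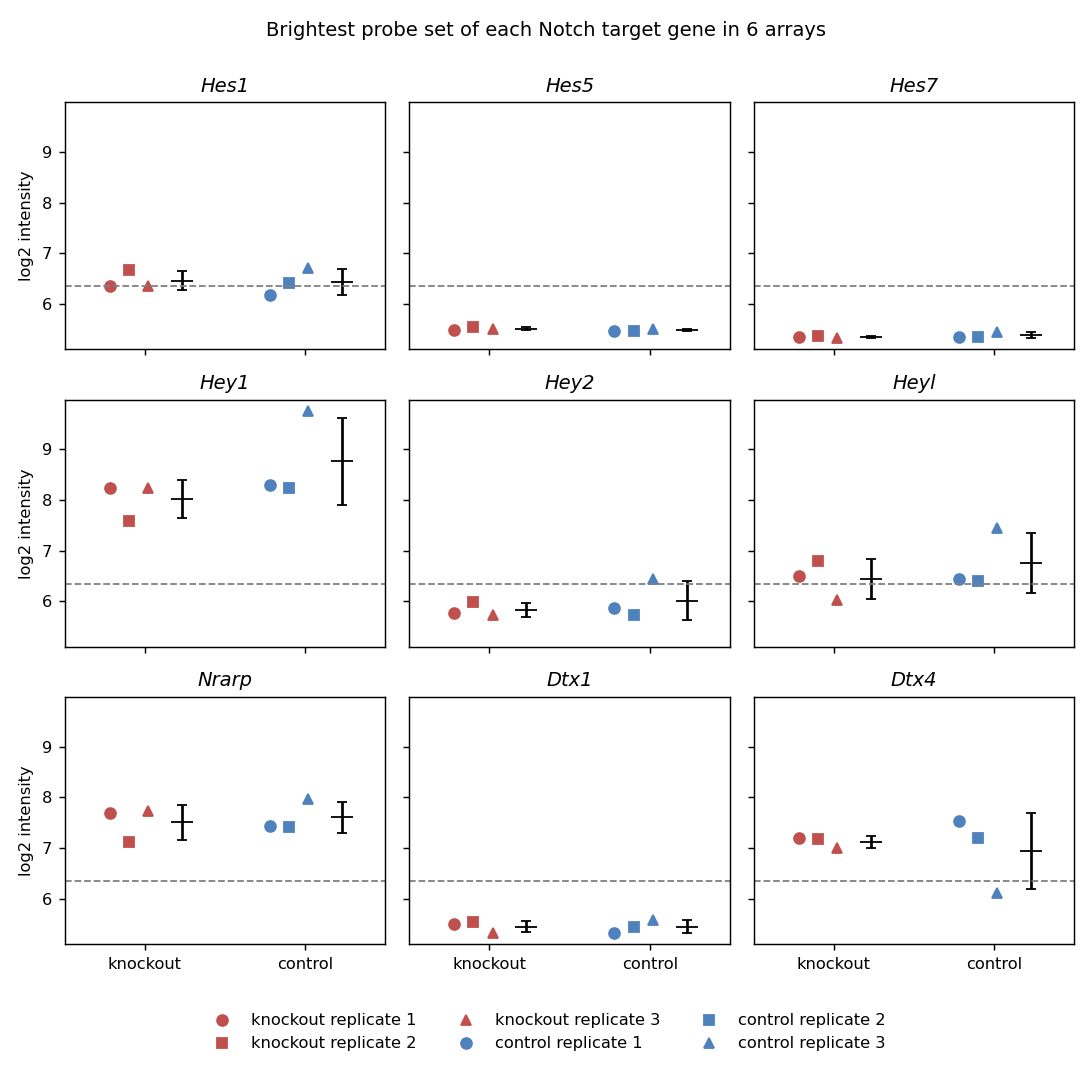
Log2 intensity of the brightest probe set of each of the 9 genes in 3 knockout (red) and 3 control (blue) arrays, with the group mean and SD (n = 3) in black and the background level of 6.35 as a dashed line. Hes5, Hes7 and Dtx1 lie below the line in all 6 arrays, and the triangle of the array labelled control replicate 3 is the highest point for Hey1 (865 on the linear scale), Hey2 and Heyl and the lowest for Dtx4.

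Nrarp, a small ankyrin-repeat protein that Notch induces and that destabilises the Notch intracellular part, was above background in all arrays. It read 206, 139 and 212 in the knockout and 173, 172 and 249 in the control arrays. Knockout replicate 2 was the lowest, and the array labelled control replicate 3 the highest. The log2 difference was -0.10 ± 0.27 (SE; 95% interval -0.74 to 0.55, adjusted p = 0.977 in limma). It was 0.08 without the array labelled control replicate 3, 0.10 without knockout replicate 2 and 0.28 without both. The second Nrarp probe set, below background throughout, read 63.6, 44.9 and 70.3 in the knockout and 65.8, 61.0 and 43.1 in control. There the array labelled control replicate 3 was the lowest of the 6 instead of the highest, while knockout replicate 2 was low on both.

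Dtx1 and Dtx4 encode ubiquitin ligases of the Deltex family, which bind the intracellular part of Notch and act on its turnover. Dtx1, best known as a target in lymphocytes, read 45.0, 46.3 and 40.0 in the knockout and 40.2, 43.4 and 47.7 in control. It was below background in every array, with a log2 difference of 0.00057 ± 0.08 (SE; adjusted p = 0.99966 in limma), and of 10 measured lymphocyte markers 0 were above background in either group mean. Dtx4 read 147, 144 and 127 in the knockout and 186, 147 and 68.8 in the control arrays. The knockout values lay close together, and the control values spread from the highest to the lowest of all 6. The log2 difference of Dtx4 was 0.18 ± 0.38 (SE; 95% interval -0.73 to 1.08, adjusted p = 0.973 in limma) and -0.24 without the array labelled control replicate 3. The second Dtx4 probe set read 92.0, 73.1 and 66.5 in the knockout and 99.1, 80.4 and 77.3 in control, with a log2 difference of -0.15 ± 0.21 (adjusted p = 0.987 in limma over all probe sets), opposite in sign to the first. In the array labelled control replicate 3 the log2 value of the first minus the mean of the other arrays was -1.12, and that of the second -0.07.

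**Figure D2:**
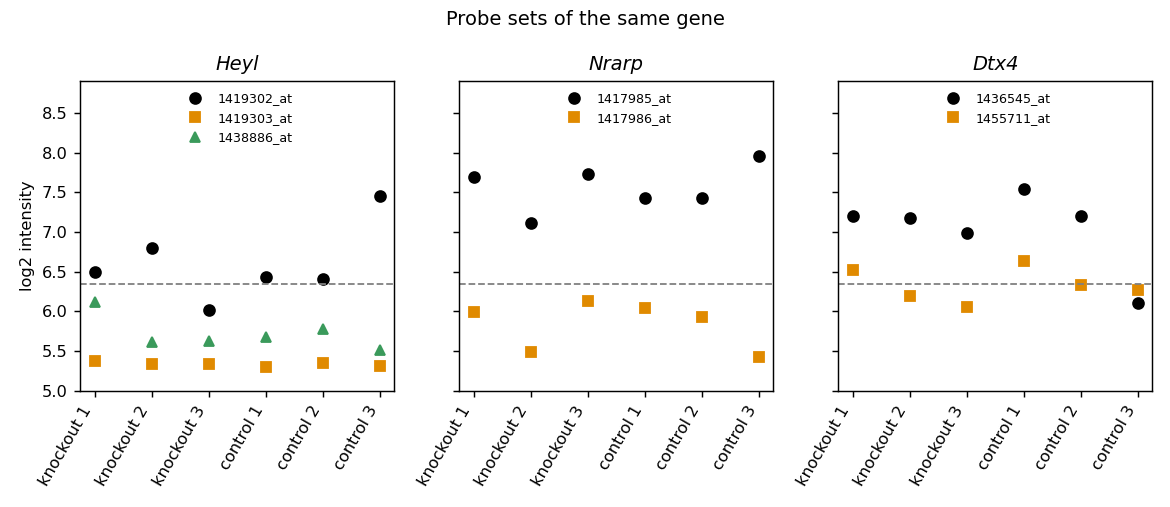
Log2 intensity of every probe set of Heyl, Nrarp and Dtx4 in each of the 6 arrays, with the background level of 6.35 as a dashed line. The probe sets of each gene part in the array labelled control replicate 3, where the brightest of Heyl (174 on the linear scale) and Nrarp (249) are at their highest and their other probe sets are at or near their lowest.

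Across the 9 genes, values at the ends of the range came often from a single array. By the brightest probe set, the array labelled control replicate 3 gave the highest of the 6 values for 7 members and the lowest for Dtx4. Counting all 15 member probe sets, it was highest for 7 and lowest for 3. Over all genes it was highest for 35.5% and lowest for 32.3%. Its log2 value minus the mean of the other 5 arrays was 1.64 for Hey1, a 3.11-fold higher intensity that lies at the 99.1th percentile of all genes. It was 1.02 for Heyl (97.0th percentile), 0.63 for Hey2 (92.6th) and 0.48 for Nrarp (89.5th). It was -1.12 for Dtx4 (5.82th percentile). Among the 7 members highest in that array, Hes7 (0.10), Dtx1 (0.15) and Hey2 were below background in both group means. The median of the same measure was 0.09 over the 38 background genes and 0.01 over all genes. Over all genes 577 lay more than 1 log2 unit above and 1384 more than 1 below, so both Hey1 and Heyl belong to the 3.17% that lay furthest up. Both arrays with high 3' to 5' ratios held the 2 highest values for 6 members (Hes1, Hes5, Hes7, Hey2, Heyl and Dtx1) and the 2 lowest for 0, against 18.7% and 15.3% of all genes, and 4 of these 6 were below background. The part of the 3' to 5' ratio in these values was not tested.

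**Figure D3:**
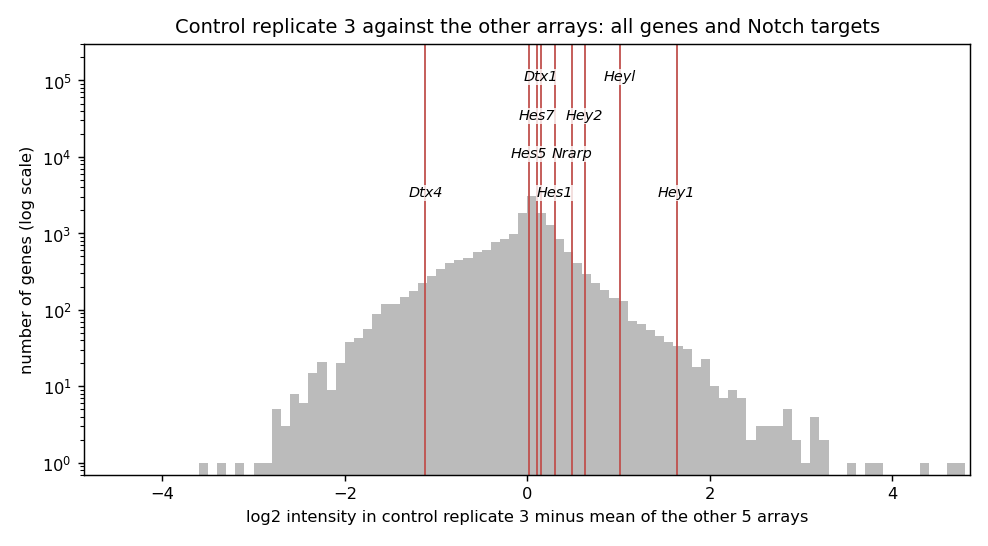
Number of genes (log scale) by their log2 intensity in the array labelled control replicate 3 minus the mean of the other 5 arrays, with the 9 Notch targets as red lines. Hey1 at 1.64 and Heyl at 1.02 lie in the upper tail, and Dtx4 at -1.12 lies in the lower one.

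Without that array 0 members were called and 0 had an unadjusted p under 0.05, against 0.0% and 5.99% of all genes. The sign of the difference turned for 4 of 9 members, Hey2, Heyl, Nrarp and Dtx4. The remaining differences were -0.24 for Hey1, 0.17 for Hes1, 0.06 for Dtx1, 0.04 for Hes5 and -0.00047 for Hes7. The intervals show what differences in the deposited values these arrays could have missed. For Hey1 the 95% interval without that array ran from -0.81 to 0.33, for Hes1 from -0.23 to 0.57 and for Nrarp from -0.48 to 0.64 on the log2 scale. Over all arrays Hes1 had log2 means of 6.46 in the knockout and 6.43 in control, close to the background level of 6.35. Since RMA compresses fold changes of dim genes, its interval may be too narrow for the change in RNA.

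**Figure D4:**
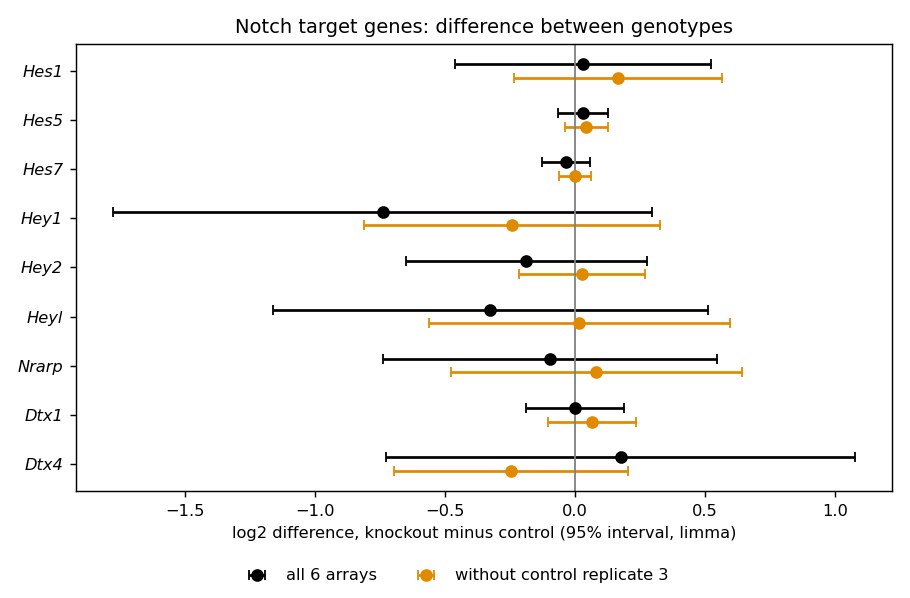
Log2 difference between knockout and control for each of the 9 genes with its 95% interval from limma, over all 6 arrays (black) and without the array labelled control replicate 3 (orange). Every interval includes 0, and that of Hey1 narrows from -1.78 to 0.30 over all arrays to -0.81 to 0.33.

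The upstream genes of the pathway did not pass the test either. Of 4 Notch receptors 0 were called, 3 had higher and 1 lower values, with a median log2 difference of 0.43 (0.09 without the array labelled control replicate 3). Notch3, the receptor of smooth muscle and pericytes, read 259, 591 and 201 in the knockout and 191, 224 and 138 in control (0.79 ± 0.42 SE). Notch2 had 0.49 ± 0.32 and Notch1 0.38 ± 0.33. Without the array labelled control replicate 3 these were 0.60, 0.12 and 0.06. The high Notch3 value came from knockout replicate 2 alone.

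Of 8 ligand genes 0 were called, 4 were higher and 4 lower, with a median of 0.01. Dll1 read 104, 92.1 and 85.7 in the knockout and 77.1, 70.9 and 74.9 in control (0.33 ± 0.16). Its groups did not overlap, and all control values were below background. Among the 8 ligand genes this was the case for 1 (12.5%) in overlap, against 9.01% of all genes. Jag1 had 0.38 ± 0.24 and Jag2 -0.33 ± 0.21, so the 2 Jagged ligands had opposite signs.

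Of 28 genes that process the receptor or carry the signal, 0 were called, 19 were higher and 9 lower, with a median of 0.06. Maml1, a Mastermind coactivator, had 0.44 ± 0.23 and Numb, an inhibitor of Notch, 0.41 ± 0.24, both without overlap between the groups. Mib2, a ubiquitin ligase for the ligands, had -0.52 ± 0.29. Of the 28, 2 had groups that did not overlap (7.14%), against 9.01% of all genes. Rbpj itself read 625, 734 and 636 in the knockout and 720, 739 and 525 in control (0.02 ± 0.18). The groups of Rbpj overlapped, and its lowest value was again that of the array labelled control replicate 3. Without that array the list split into 15 higher and 13 lower.

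Of 12 other genes reported as Notch targets 0 were called, 5 were higher and 7 lower, Notch3 being counted here and among the receptors. Ccnd1, cyclin D1, read 336, 142 and 307 in the knockout and 547, 451 and 423 in control (-0.94 ± 0.34, unadjusted p = 0.0290 in limma, exact permutation p = 0.1). Its groups did not overlap, and the difference was -1.02 without the array labelled control replicate 3. Snai2, a repressor of mesenchymal cells, had -0.54 ± 0.25 without overlap, and Id1, an inhibitor of bHLH factors, 0.45 ± 0.22. Of the 12, Ccnd1 alone had an unadjusted p under 0.05 in limma, as had 2.58% of all genes. Groups did not overlap for 2 of the 12 (16.7%), against 9.01% of all genes.

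Of 8 other Hes, Dec and Deltex genes 0 were called, 4 were higher and 4 lower, with Dtx2 at 0.44 ± 0.37, Bhlhe41, a clock-linked repressor, at 0.21 ± 0.25, and Hes2, below background, at -0.06 ± 0.07. Of 6 Groucho genes, which encode the corepressors that Hes proteins recruit, 0 were called, 2 were higher and 4 lower. Tle5, a short family member that lacks the WD repeats, read 1066, 929 and 1436 in the knockout and 1554, 1716 and 1395 in control (-0.46 ± 0.19, unadjusted p = 0.0447 in limma, exact permutation p = 0.2). Its groups overlapped by a single pair of values. Tle1 had -0.26 ± 0.29 and Tle6 -0.16 ± 0.19. Apart from Ccnd1 and Tle5, 0 genes of the 6 lists had an unadjusted p under 0.05 in limma, against 2.58% of all genes. The genes named from these lists by smallest p all had an adjusted p of 0.971 in limma.

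**Figure D5:**
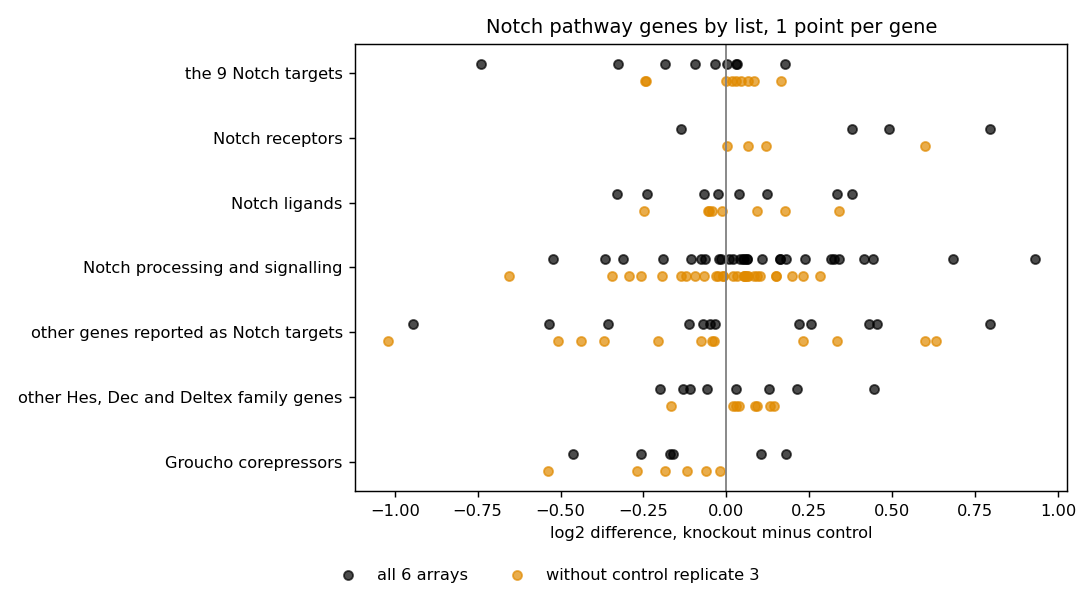
Log2 difference between knockout and control for the 9 Notch targets and for 6 lists of other pathway genes, 1 point per gene, over all 6 arrays (black) and without the array labelled control replicate 3 (orange). No gene passed the test, and the receptors move toward 0 without the array labelled control replicate 3 (median 0.43 to 0.09).

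For each member above background, the genes whose profile over the 6 arrays was nearest were found among 9766 other genes above background. Nearness was the root mean square difference between log2 profiles after centring each gene. The nearest to Hes1 were Ip6k3 (0.028) and Mff (0.038), and to Hey1 Bloc1s2 (0.110) and Prkdc (0.124). For Heyl they were Myb (0.080) and Erg (0.105), for Nrarp Dis3l (0.055) and Ablim3 (0.057), and for Dtx4 AW011738 (0.050) and Ern1 (0.065). Like Hey1, Bloc1s2 read 660.1 in the array labelled control replicate 3 and 182 to 258 elsewhere. All of these likenesses include that array.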

How the data were processed

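Values were deposited by the authors as probe set intensities on a linear scale, 1 column per sample. GCOS and RMA are named in the submitters' processing notes, without versions. That the scale is linear follows from the values (37.2 to 16069, array medians 56.6 to 58.6), and whether they were rescaled after RMA is unknown. RMA compresses fold changes of dim genes.

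Probe sets were named through the platform annotation, and each gene was represented by the brightest of its single-gene probe sets by mean. Log2 values without pseudocount entered a model with group as its only term in limma 3.58.1, moderated with a trend (R 4.3.3), two-sided, adjusted by Benjamini-Hochberg over 18194 genes, or over 45037 probe sets without control probe sets. The fit was tested on simulated data drawn from a normal distribution for each gene, without an outlying array. That test does not show how the fit behaves with an array such as the one labelled control replicate 3. No label states that each sample is a separate animal, so part of the spread behind the p-values may be technical. Each group held arrays with high and with low Xist, so its samples did not all come from the same animal. The number of arrays limits precision. Array correlations are over all 45101 probe sets.

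Members and lists were chosen with earlier results of these data known. Named were all members, Pofut1, from each list the 3 genes with the smallest p, and for each member above background the 2 nearest profiles. Further genes were picked with their values in view. Alternatives covered the replicate block, normalization, centring, dim genes, variance models, array weights, a pseudocount of 32, probe set use, the Xist pattern and leaving out each array. Leaving out both arrays with high 3' to 5' ratios was chosen after seeing the data.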

Additional observations from a re-analysis of the deposited data

How the results depend on the processing

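Over all 19 alternatives limma or ordinary t statistics called 0 genes, 0 of the 9 members, and 0 genes of the pathway lists. Fits of the alternatives over probe sets also called 0 member probe sets. With the replicate number as a block 0 genes were called. Same-numbered arrays deviated from their group means with correlations of 0.19, -0.15 and -0.11. Each deviation depends on every array of its group, so these values cannot decide whether same-numbered samples were paired. The fit without the block also called 0 genes, so no call could be lost under it. Genes with an unadjusted p under 0.05 numbered 469, and 377 with the block, 786 without trend, 615 with ordinary t statistics, 883 over every probe set, 1854 with array weights, 276 to 1090 without single arrays, and 1362 without both arrays with high 3' to 5' ratios.

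The direction of members was less stable than the absence of calls, and Hey1 kept its own under all 19 alternatives. Hes5 and Hes7 kept theirs under the 18 that gave them a value, since the restriction to genes above background left them out. With array weights Nrarp was at 0.19 and Dtx4 at -0.27. Without both arrays with high ratios they were at 0.28 and -0.27. Dtx1, near 0, was at -0.017 when arrays were centred on the 75th percentile and -0.00038 with the mean of probe sets. Leaving out single arrays moved Hes1 between -0.10 and 0.17, Hey1 between -1.0 and -0.24, Hey2 between -0.33 and 0.029, Heyl between -0.50 and 0.017, Nrarp between -0.20 and 0.10, Dtx1 between -0.059 and 0.064, Dtx4 between -0.24 and 0.47 and Pofut1 between -0.66 and 0.38. The cause was not tested.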

Other observations

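The array labelled control replicate 3 held pathway genes far from the other arrays on both sides. Against the mean of the other 5 arrays Notch1, Notch2 and Notch3 lay at -0.98, -1.19 and -0.94 on the log2 scale, and Notch4, a receptor of endothelium, at 0.41. By the brightest probe set only Dtx4 of the targets lay below, at -1.12, and its second probe set was at -0.07. By the same measure all other targets lay above, from Hes5 at 0.013 to Heyl at 1.02 and Hey1 at 1.64. Their dimmer probe sets did not all follow. Those of Heyl lay at -0.02 and -0.25 and that of Nrarp at -0.49, against 0.04 for Hes5 and 0.03 for Dtx1. Of the other genes reported as targets, Cdkn1a, an inhibitor of the cell cycle, lay at -1.47 and Myc at -0.83. Among the other pathway genes Fbxw7, which marks the Notch intracellular part for destruction, lay at -2.43, Aph1a, of the gamma-secretase that cuts the receptor, at -1.69, and the fringe gene Lfng at 1.07. These genes were chosen after their values were seen, and they describe a single array.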
